A study of Mus musculus with 3 samples.

Results

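Most subunits of the mitochondrial respiratory chain are encoded in the nucleus, and the messenger RNAs of these genes were followed here through mouse bone marrow cells taken without challenge, after 1 challenge with Escherichia coli and after 2 challenges. The genes were chosen by name: rows of the count tables whose symbol starts with Nduf, Uqcr or Atp5, or with Cox followed by a digit from 4 to 8, plus Sdha, Sdhb, Sdhc, Sdhd and Cycs, without pseudogenes marked -ps. This gave 94 of 31053 rows, and the rule itself uses names alone. By complex they were 7 core subunits, 29 accessory subunits and 8 assembly factors of complex I, 4 subunits of complex II, 8 of complex III, cytochrome c (Cycs), 20 of complex IV and 17 of complex V.

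The respiratory chain moves electrons from NADH through complex I, or from succinate through complex II, to ubiquinone, then through complex III and cytochrome c to complex IV, which reduces oxygen. Complexes I, III and IV pump protons, and complex V (ATP synthase) uses the gradient to make ATP. A few core subunits are encoded in mitochondrial DNA, so each of complexes I, III, IV and V is put together from 2 genomes. Haematopoietic stem cells are known for relying little on respiration, dividing progenitors for relying on it more, and mature neutrophils for few mitochondria and mainly glycolytic metabolism.

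The libraries were single-cell 10x Genomics 3′ (version 2) libraries of C57BL/6 bone marrow enriched for cKit+ cells, where Kit is the stem cell factor receptor of early blood progenitors. There were 3 groups with 1 library each: rechallenged (given 2 challenges, labelled 48 h), challenged once (labelled 24 h) and unchallenged, labelled as steady state. The number of challenges and the labelled hours changed together, so they cannot be told apart, and with 1 library in each group no test between groups was possible. The labels do not say from when the hours count or whether animals were pooled, and the source name reads bone marrow neutrophil beside the cKit+ enrichment. All intervals below are exact 95% intervals that cover counting error only, not the spread between animals or library preparations.

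The deposited tables held 8923, 9060 and 9684 cell barcodes with 95522747, 135079828 and 119646078 unique molecular identifiers (UMIs) in the rechallenged, challenged once and unchallenged libraries, of which 8263, 8356 and 8742 cells were kept. Their median depths were 10241, 13004 and 10940 UMIs. The median share of mitochondrial UMIs in a cell was 4.10%, 2.58% and 2.07%, with the rechallenged library highest in every named class read below. Between 103 and 125 barcodes were shared by each pair of libraries and none by all 3. Cells were clustered without the respiratory chain genes, and clusters were named from marker genes. The haematopoietic stem and progenitor (HSPC-like) class was led by Hlf, Mecom and Cd34 in cluster 5 and by Flt3, Ly6d and Dntt beside a member, Cox6a2, in cluster 12. The marker list of immature neutrophils, mostly secondary granule genes, took 1.75%, 1.26% and 5.68% of UMIs despite the enrichment.

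Respiratory chain messenger RNA took a larger share of the transcriptome in both challenged libraries than in the unchallenged one over all kept cells and within neutrophil progenitor-like, monocyte-like, immature neutrophil-like and HSPC-like cells. Over all kept cells the 94 genes summed to 3.32% of UMIs (3.31 to 3.32) in the rechallenged library, 3.19% (3.19 to 3.2) in the challenged once library and 2.58% (2.57 to 2.58) in the unchallenged library. These sums mix cell classes in different proportions, since immature neutrophil-like cells, whose share was low, numbered 1393, 1061 and 3389. Within neutrophil progenitor-like cells the shares were 3.97%, 3.67% and 3.2%, and within monocyte-like cells 4.02%, 3.78% and 3.34%, so in both classes the order of the libraries was the same as over all cells. Immature neutrophil-like cells gave 2.45%, 2.15% and 1.82%. Their cluster 9, which has the primary granule gene Elane among its leading genes, made up 41.8%, 23.6% and 13.4% of the class, and clusters 0 and 6 the rest. Within cluster 0 the shares were 2.08%, 1.86% and 1.77%, in the same order and closer together. HSPC-like cells gave 2.58% (2.57 to 2.59), 2.70% (2.69 to 2.71) and 2.26% (2.25 to 2.27), with the challenged once library highest. With the 50 most abundant genes left out of the total, the HSPC-like shares became 4.10%, 3.86% and 3.31%, so the order of the challenged libraries depended on the denominator.

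Several classes did not follow this order. Erythroid-like cells, whose precursors build haem in mitochondria, had 3.55%, 3.35% and 3.56% of their UMIs in these genes. In B lineage-like cells the shares were 2.92%, 2.76% and 2.92%, and in megakaryocyte-like cells 2.60%, 2.56% and 2.65%. In each of these 3 classes the challenged once library had the lowest share. The unnamed cluster 7, led by the late neutrophil genes Mmp8, Mmp9 and Retnlg, had the smallest spread of the classes given, with 1.44%, 1.47% and 1.43%. At equal depth, with every cell thinned to 2000 UMIs, the median cell gave 2.95%, 2.85% and 2.15% over all cells, 2.35%, 2.50% and 2.10% in HSPC-like cells, and 3.85%, 3.65% and 3.15% in neutrophil progenitor-like cells. Without thinning the medians over all cells were 2.86%, 2.81% and 2.10%. Thinning left out 759, 673 and 374 shallower cells.

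**Figure D1:**
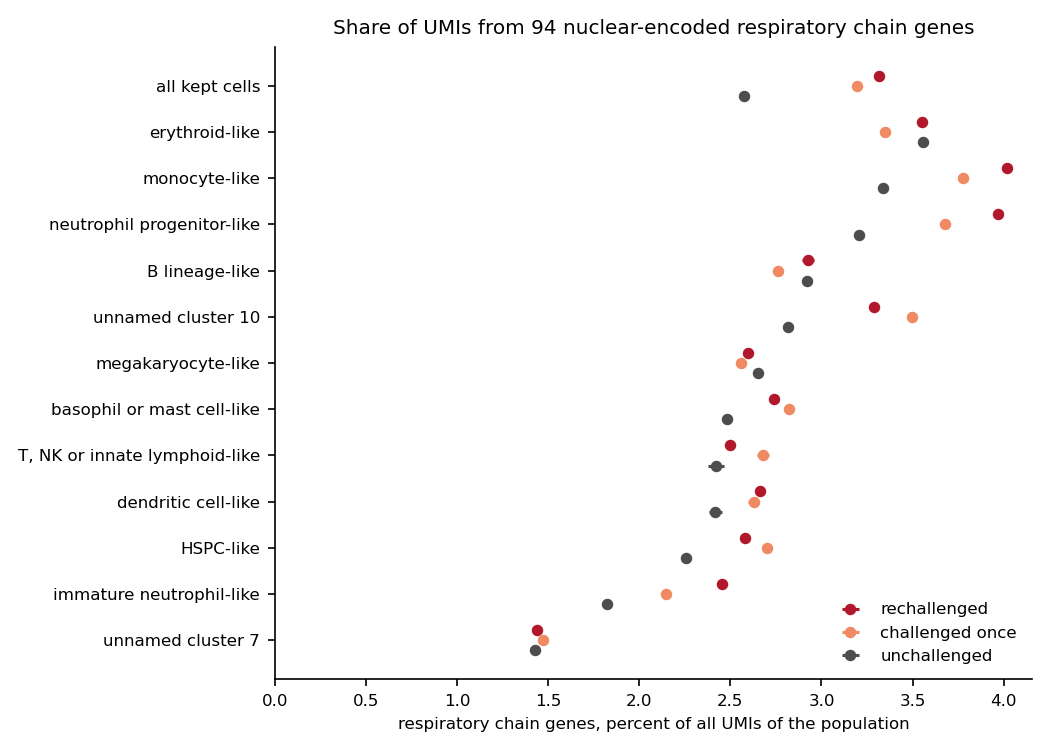
Share of UMIs (percent) from the 94 nuclear-encoded respiratory chain genes in each cell class, with 1 point per library and exact 95% intervals for counting error. Neutrophil progenitor-like cells reached 3.97%, 3.67% and 3.2% in the rechallenged, challenged once and unchallenged libraries, while the unnamed cluster 7 stayed between 1.43% and 1.47%.

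Levels of single genes are given as counts per 1000000 UMIs (CPM), from UMIs summed over the cells of a class. Counts from the 3′ end are not per length, so levels are compared between libraries and not between genes. A log2 ratio is the log2 of (CPM + 10) in one library over (CPM + 10) in the other, for genes whose UMIs in the 2 libraries together reached 100, and a gene is called higher or lower when that ratio passed 1.5-fold.

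Over all kept cells 13 of 89 measured members were higher and 2 lower in the rechallenged than in the unchallenged library, where 2.3% of all genes were higher and 4.05% lower. The highest were Atp5k, subunit e in the membrane part of ATP synthase, at 869, 495 and 454 CPM in the rechallenged, challenged once and unchallenged libraries, and Uqcr11, a small complex III subunit, at 857, 700.5 and 472 CPM. The lower ones were Cox6b2 and Sdhb, the iron-sulphur subunit of complex II, which had 83.4, 151 and 131 CPM. In the challenged once against the unchallenged library 6 of 89 were higher and none lower, beside 1.94% and 1.5% of all genes. Those 6 were Atp5g1, Uqcrq, Cycs, Ndufab1, Ndufa12 and Sdhd. In rechallenged against challenged once 4 of 89 were higher and 10 lower, beside 1.44% and 8.44%.

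The median-of-ratios centre over all kept cells lay at -0.07 for rechallenged against unchallenged, 0.20 for challenged once against unchallenged and -0.23 for rechallenged against challenged once. Relative to it the counts became 18 higher and 1 lower, 0 and 0, and 12 higher and 2 lower. As mean log2 ratios over cell classes of equal weight (10 classes with at least 100 cells in each library compared) they became 2 higher and 1 lower, 0 and 0, and 2 higher and 8 lower. This setting also drops small classes and averages log ratios, and the effect of the class mix alone was not tested. For neither setting was the share of all genes past 1.5-fold taken, so their counts have no background beside them.

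In HSPC-like cells Cox6a1 was higher in the rechallenged library than in both others, while 17 members were lower than in the challenged once library, among them Atp5g1, Atp5b, Sdhb and 3 core subunits of complex I. These cells numbered 816, 1096 and 759 in the rechallenged, challenged once and unchallenged libraries. Cluster 12 held most of them in the rechallenged library (425 cells) and cluster 5 in the others (720 and 472 cells). Of the genes measured, 3 of 88 were higher and none lower in challenged once against unchallenged cells, where 0.4% of all genes were higher and 0.952% lower. In rechallenged against unchallenged cells 6 of 87 were higher and 1 lower, against 2.16% and 11.2% of all genes. In rechallenged against challenged once cells 2 of 88 were higher and 17 lower, against 2.48% and 11.2% of all genes. The median log2 ratios of the members were 0.23, 0.01 and -0.21 in these 3 comparisons, beside -0.02, -0.14 and -0.12 over all genes. The comparisons share libraries and are not independent of each other. The same immature neutrophil markers took 0.0539%, 0.0503% and 0.382% of UMIs in HSPC-like cells, and their part in these ratios was not tested.

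The scaling mattered for these counts. The centre used by median-of-ratios scaling lay at a log2 ratio of -0.03 for challenged once against unchallenged, -0.21 for rechallenged against unchallenged and -0.18 for rechallenged against challenged once. Relative to that centre 4 members were higher and 0 lower in the first comparison, 17 higher and 0 lower in the second, and 5 higher and 3 lower in the third. The share of all genes past 1.5-fold was not taken under this scaling, so these counts have no background beside them. The number of lower members in rechallenged against challenged once cells thus depended on the scaling. For rechallenged against unchallenged the counts were 5 higher and 5 lower with all variable genes in clustering, 5 and 4 with no filter on cells and in cluster 5 alone, and 6 and 4 after thinning to 2000 UMIs. The member medians there were -0.02, -0.03, -0.03 and 0.04.

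Complex IV, cytochrome c oxidase, held the members with the highest ratios in HSPC-like cells. Cox6a1, the widely expressed form of its VIa subunit, had 482 CPM (467 to 498) in the rechallenged library, 262 CPM (254 to 271) in the challenged once library and 201 CPM (191 to 211) in the unchallenged library. It was higher in the rechallenged library than in either other library, by 2.40-fold (2.26 to 2.55) against unchallenged cells. Cox7b, a small subunit of the same enzyme, had 349, 288 and 163 CPM and was higher in both challenged libraries than in the unchallenged one. The 14 complex IV members measured for rechallenged against unchallenged had a median log2 ratio of 0.32, with 3 higher and 0 lower. These 3 included Cox6a2, read below, whose ratio became -0.35 with Scrublet doublet calls kept. For rechallenged against challenged once the median was 0.08 (15 measured). Clusters 5 and 12 each showed the same order for Cox6a1: 404, 209 and 141 CPM in cluster 5, and 541, 353 and 275 CPM in cluster 12.

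Complex I differed between its parts. None of its 7 nuclear-encoded core subunits, which carry the redox centres, had a log2 ratio above 0 for rechallenged against unchallenged HSPC-like cells. Their median was -0.37 (-0.17 with median-of-ratios scaling). Against challenged once their median was -0.58 and 3 of 7 were lower. The core subunits encoded in mitochondrial DNA, read below, lay above 0 in both comparisons. The 29 accessory subunits had a median of 0.11 for rechallenged against unchallenged, with 2 higher and none lower. Those 2 were Ndufb10, at 198, 153 and 115 CPM, and Ndufs6, a zinc-binding subunit, at 185, 176 and 119.6 CPM. Against challenged once the accessory median was -0.13, which became 0.04 with median-of-ratios scaling, and 5 were lower, including Ndufa12 at 129, 242 and 188 CPM. Ndufaf4, an assembly factor, was the 1 member lower in rechallenged than in unchallenged HSPC-like cells as scaled here, where other settings gave 0 to 5 lower members, at 22.5 CPM (19.3 to 26.1) against 43.2 CPM (38.7 to 48.2), with 46.8 CPM (43.4 to 50.4) in the challenged once library.

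Complex II links the citric acid cycle to the chain, and its 4 members had log2 ratios of 0.13 to 0.65 for challenged once against unchallenged HSPC-like cells and of -0.72 to -0.20 for rechallenged against challenged once. Sdhb had 95.1, 164 and 138 CPM in HSPC-like cells of the rechallenged, challenged once and unchallenged libraries and was lower in rechallenged than in challenged once cells (log2 ratio -0.72). Sdhd, a membrane anchor, had 76.5, 125 and 76.2 CPM and was higher in challenged once cells than in unchallenged cells and lower in rechallenged than in challenged once cells. Sdha, the flavoprotein subunit, had 104, 121 and 110.2 CPM, and Sdhc, the other anchor, had 64.9, 88.7 and 65.4 CPM, and neither passed 1.5-fold in any HSPC-like comparison. For Sdhd and Sdhc the challenged once library stood apart, while the other two libraries were within counting error of each other.

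Complex III, cytochrome c and complex V gave a mixed picture in the same cells. Uqcrq, a small complex III subunit, had 323, 389 and 252 CPM and was higher in challenged once than in unchallenged cells. Cycs, the soluble electron carrier that also acts in apoptosis, had 153 CPM (144 to 161) in the rechallenged library, 228 CPM (220 to 236) in the challenged once library and 182 CPM (172 to 192) in the unchallenged library, and passed 1.5-fold in no comparison. Atp5g1, which with Atp5g2 and Atp5g3 encodes the c subunit of the ATP synthase rotor, had the lowest ratio of all members for rechallenged against challenged once, at 307, 589 and 416 CPM (log2 ratio -0.92). Atp5g3 had 258, 301 and 243 CPM and lay within 1.5-fold in each comparison. Atp5b, the catalytic beta subunit, had 421, 681 and 535 CPM and was also lower in rechallenged than in challenged once cells. Atp5k had 467, 341 and 311 CPM, just inside 1.5-fold for rechallenged against unchallenged.

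**Figure D2:**
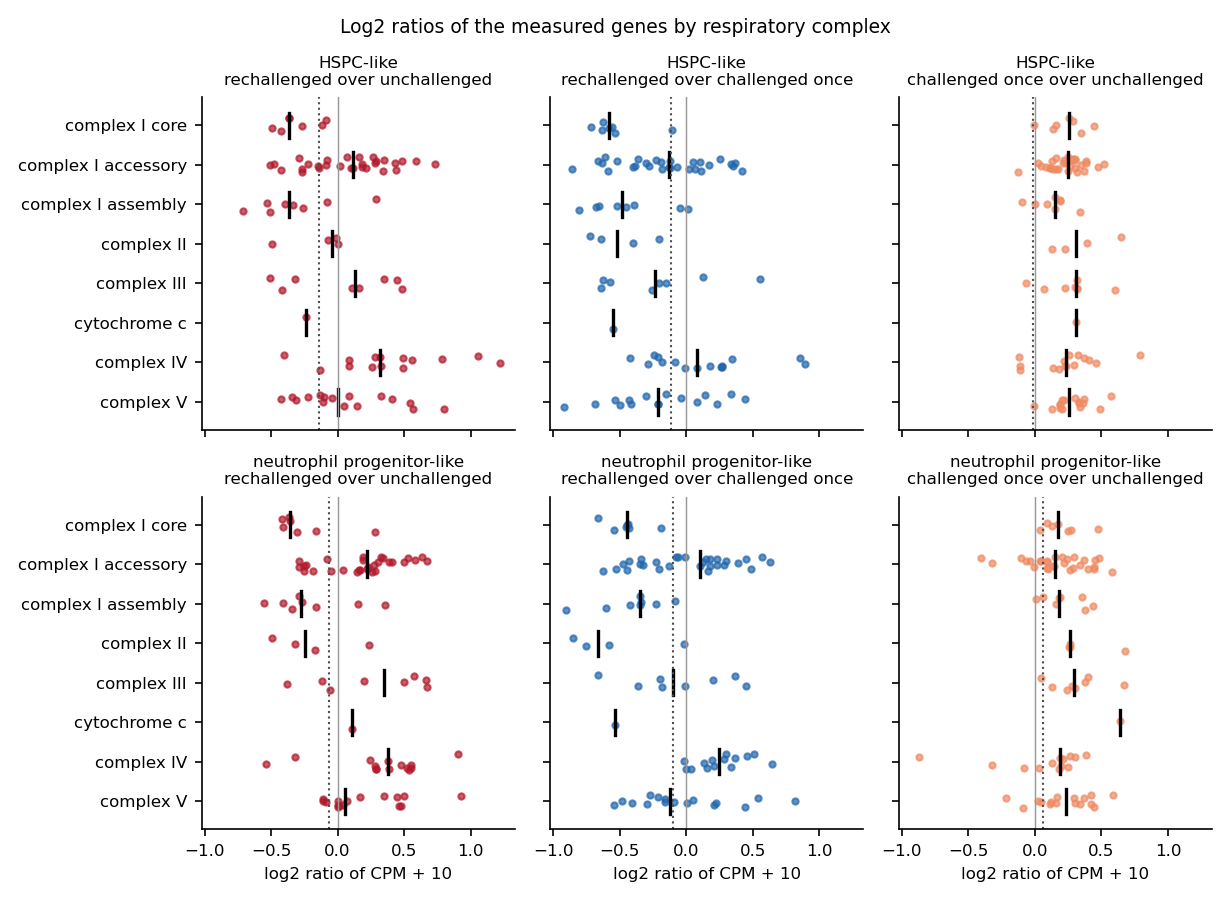
Log2 ratios (CPM + 10, scaled by total UMIs) of the measured genes, 1 point per gene, grouped by respiratory complex for HSPC-like and neutrophil progenitor-like cells in each comparison, with the median of each group as a bar and the median of all genes as a dotted line. In HSPC-like cells of the rechallenged library the nuclear-encoded core subunits of complex I lay below 0 against unchallenged cells (median -0.37). The complex IV members lay mostly above 0 (median 0.32).

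Neutrophil progenitor-like cells, marked by the primary granule genes Elane, Mpo and Prtn3, gave more members higher than lower in the rechallenged library against the unchallenged library. They numbered 1855, 1225 and 673 in the rechallenged, challenged once and unchallenged libraries, with cluster 1 holding most in the rechallenged (1186) and unchallenged (432) libraries and cluster 4 in the challenged once library (747). In challenged once against unchallenged cells 4 of 86 members were higher and 1 lower, against 2.28% and 1.23% of all genes. In rechallenged against unchallenged cells 6 of 87 were higher and none lower, against 1.92% and 5.04%. In rechallenged against challenged once cells 3 of 87 were higher and 7 lower, against 1.29% and 8.87%, so the share lower was near that of all genes. With median-of-ratios scaling these counts became 0 higher and 1 lower, 18 higher and 0 lower, and 11 higher and 2 lower, with centres at 0.11, -0.12 and -0.20. No share of all genes was taken under that scaling in these cells, so the rescaled counts have no background beside them. Against the challenged once library, whether more members were higher or lower thus depended on the scaling.

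Atp5k was the member with the highest ratio for rechallenged against unchallenged progenitors, with 1106 CPM (1094 to 1119) in the rechallenged library, 625 CPM (616 to 633) in the challenged once library and 575 CPM (562 to 589) in the unchallenged library. Cox6a1 followed, with 950.0, 604 and 502 CPM. Both were higher in rechallenged cells than in either other library, and their challenged once and unchallenged values lay within 1.5-fold. Ndufs6 (413, 351 and 255 CPM), Ndufc1 (447, 379 and 285 CPM) and Uqcr11 (1219, 943 and 762 CPM), small subunits of complexes I and III, were higher in rechallenged than in unchallenged progenitors.

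Other genes had their highest level in challenged once progenitors. Cycs had 486 CPM (478 to 494) in rechallenged, 708 CPM (699 to 717) in challenged once and 451 CPM (439 to 463) in unchallenged progenitors, and was higher in challenged once than in unchallenged cells. Sdhd had 113, 212 and 129 CPM and Atp5g1 865, 1266 and 839 CPM, and both were likewise higher in challenged once than in unchallenged cells. Uqcrq behaved differently, at 819, 826 and 514 CPM, and was higher in both challenged libraries. Under median-of-ratios scaling no member passed 1.5-fold upward for challenged once against unchallenged progenitors. Without the 50 most abundant genes in the total 2 did, so the number of these 4 calls that held depended on the scaling. Cox6b2, known as the testis form of complex IV subunit VIb, was the member lower in challenged once than in unchallenged progenitors, at 44.4, 33.1 and 69.0 CPM.

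The complexes were then set side by side in progenitors. The medians for rechallenged against unchallenged progenitors were -0.36 for complex I core, 0.22 for accessory and -0.28 for assembly genes, -0.24 for complex II, 0.35 for complex III, 0.38 for complex IV and 0.06 for complex V. Of the 7 nuclear-encoded core subunits 1 lay above 0, and of the 14 measured complex IV members 12 did. With median-of-ratios scaling these medians kept their signs, at -0.25, 0.34, -0.20, -0.14, 0.46, 0.50 and 0.14.

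The other large classes gave further examples. In monocyte-like cells 7 of 89 members were higher and 2 lower for rechallenged against unchallenged, where 1.91% of all genes were higher and 5.89% lower. Cox6a1 had 874, 550 and 372 CPM and Cox7b 624, 506 and 281 CPM in monocyte-like cells of the rechallenged, challenged once and unchallenged libraries, and both were higher in rechallenged than in unchallenged cells. In immature neutrophil-like cells 12 of 86 were higher and 1 lower for the same comparison, beside 2.75% and 3.62% of all genes. Within single clusters of that class 4 were higher and 4 lower in cluster 0 (2.47% and 6.87% of all genes), 4 and 4 in cluster 6 (5.1% and 9.42%) and 8 and 3 in cluster 9 (3.37% and 10.5%). The class counts thus depended on the clusters summed. Uqcrh had 562, 340.0 and 308 CPM there, and Sdhb, the lower one, had 46.4, 87.2 and 80.7 CPM.

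More members were lower than higher in several other classes. In erythroid-like cells, of 86 members 1 was higher and 10 were lower in rechallenged than in unchallenged cells, where 1.23% of all genes were higher and 5.73% lower. Sdhd had 141, 273 and 272 CPM in erythroid-like cells of the rechallenged, challenged once and unchallenged libraries, Sdhb 121, 195 and 213 CPM and Ndufs8, a core iron-sulphur subunit of complex I, 100.4, 172 and 176 CPM. All 3 were lower in rechallenged cells. Atp5k, the higher one, had 896, 408 and 582 CPM. With median-of-ratios scaling, centred at -0.16, the erythroid-like counts became 5 higher and 3 lower, with no share of all genes taken under that scaling. In B lineage-like cells 3 of 83 were higher and 14 lower, beside 6.86% and 17.5% of all genes. In megakaryocyte-like cells none of 85 was higher and 11 were lower, beside 2.99% and 12.2%. In T, NK or innate lymphoid-like cells 2 of 73 were higher and 13 lower, beside 11.8% and 25.6%. In these 3 classes the share of members lower was near that of all genes or below it.

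Genes of the same pathway that the rule did not choose were read from lists of their own. In HSPC-like cells, assembly factors with cytochrome c1 had 1 of 31 genes higher and 4 lower for rechallenged against unchallenged, and 0 of 32 higher and 4 lower against challenged once, where 11.2% of all genes were lower in both comparisons. These shares, like that of the citric acid cycle genes against unchallenged cells, were near or below that background. Cyc1, the haem subunit of complex III whose name falls outside the rule, had 76.1, 195 and 138 CPM in the rechallenged, challenged once and unchallenged libraries and was lower in rechallenged cells than in both others. Tmem70, an ATP synthase assembly factor, had 25.7, 56.9 and 53.6 CPM and was also lower in rechallenged cells than in both others. Of 13 citric acid cycle genes 1 was lower in rechallenged than in unchallenged HSPC-like cells and 5 were lower than in challenged once cells, led by Idh3a, a subunit of isocitrate dehydrogenase, at 27.7, 59.8 and 59.6 CPM. Of 6 carrier and pore genes 4 were lower in rechallenged than in challenged once cells, among them Slc25a5, an ADP/ATP carrier, at 603, 982 and 678 CPM.

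Of 10 listed regulators of these genes, 9 were measured for rechallenged against challenged once and 8 for rechallenged against unchallenged HSPC-like cells. In each comparison 1 was lower, a share near the 11.2% of all genes that were lower in both. That gene, Tfam, which packages and transcribes mitochondrial DNA, had 36.7, 70.5 and 62.5 CPM in HSPC-like cells and was lower in rechallenged cells than in both other libraries. Nrf1 (28.4, 23.3 and 24.4 CPM), Gabpa (20.6, 17.8 and 16.0 CPM), Gabpb1 (27.9, 34.9 and 36.7 CPM) and Yy1 (67.1, 80.3 and 86.3 CPM), transcription factors of nuclear respiratory genes, did not pass 1.5-fold. Tfb2m (13.9, 20.6 and 20.7 CPM), Polrmt (5.41, 9.0 and 6.42 CPM), Esrra (10.2, 9.75 and 10.5 CPM) and Ppargc1b (5.66, 5.66 and 8.64 CPM) were low in every library, and none of them passed 1.5-fold either.

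The 13 protein genes of mitochondrial DNA, whose products join the nuclear-encoded subunits in complexes I, III, IV and V, all lay above 0 in both rechallenged comparisons in HSPC-like cells. Of these 13, 6 were higher than in unchallenged and 8 higher than in challenged once cells, with median log2 ratios of 0.57 and 0.64. For challenged once against unchallenged HSPC-like cells the median was -0.01 and none passed 1.5-fold. Their summed share of UMIs was 4.65%, 2.97% and 2.98% in HSPC-like cells and 4.45%, 2.73% and 3.38% in neutrophil progenitor-like cells. The rechallenged library had the highest share in both classes. A share of mitochondrial UMIs is also used as a sign of cell and RNA quality, and its part in the results for the nuclear genes was not tested.

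Several members kept the same direction in every cell class in the rechallenged library, and none did in the challenged once library against the unchallenged one. A member was read in every class with at least 50 cells in both libraries and at least 30 UMIs over the pair. For rechallenged against unchallenged, 11 of 82 members had a log2 ratio above 0 in every class read, where 6.58% of all genes did, and 17 had one below 0 in every class, where 24.6% of all genes did. Against the challenged once library the counts were 11 and 16 of 83, beside 5.43% and 24.2%. For challenged once against unchallenged there were 0 and 0 of 82, beside 1.29% and 1.05%. The share of members always below 0 was thus near that of all genes.

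The 11 members always above 0 for rechallenged against unchallenged were Cox6a1, Cox6c, Cox7c and Cox8a of complex IV, Atp5e, Atp5k and Atp5l of complex V, Ndufa2, Ndufa6 and Ndufb7 of complex I, and Uqcrh, the hinge protein of complex III. With median-of-ratios scaling 24 members, these 11 among them, lay above 0 in every class. The centres given above for this comparison lay below 0, so that scaling raised the ratios there. It was therefore no check on members already above 0. Cox6a1 ranged from 0.16 in the unnamed cluster 7 to 1.4 in the unnamed cluster 10 (led by Cd34, Ccl9 and Muc13), and Atp5k from 0.27 in cluster 7 to 0.95 in immature neutrophil-like cells. Of the 17 members always below 0, 4 stayed so with median-of-ratios scaling, among them Sdhb and the core proteins Uqcrc1 and Uqcrc2 of complex III. Sdhb ranged from -0.88 in B lineage-like cells to -0.42 in T, NK or innate lymphoid-like cells.

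**Figure D3:**
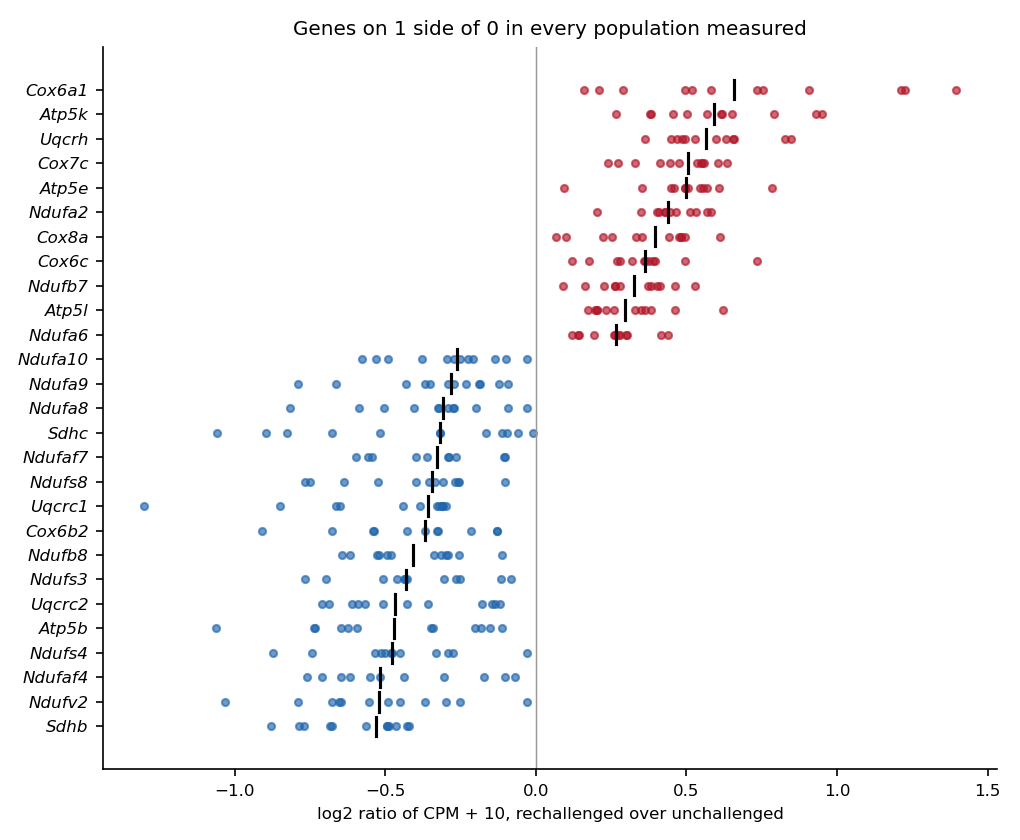
Log2 ratio of rechallenged over unchallenged (CPM + 10) in each of 12 cell classes, 1 point per class, for members on 1 side of 0 in every class in which they were read. Cox6a1 runs from 0.16 to 1.4 and Sdhb from -0.88 to -0.42.

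A property that the choice by name did not use, the length of the coding sequence, ran with the ratios of the rechallenged library. Coding lengths were taken from the GENCODE annotation of GRCm38 for 88 measured members. Over all kept cells, Spearman's rho between coding length and log2 ratio was -0.69 for rechallenged against unchallenged, -0.63 for rechallenged against challenged once and 0.01 for challenged once against unchallenged. Among all measured genes with under 600 coding bases (1600 genes in the first of these) rho was -0.29, -0.26 and -0.01, and over genes of any length it was 0.20, 0.23 and -0.09. The members' coefficients cover members of all lengths, so their size cannot be compared with that of genes under 600 bases. Over genes of any length the sign in the rechallenged comparisons was the opposite of the members' sign, and the difference was not tested. Each correlation is a description across genes that share libraries, and genes are not independent replicates.

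Members with under 300 coding bases had a median log2 ratio of 0.60 for rechallenged against unchallenged, with 11 of 22 higher and 1 lower. Over all 254 measured genes of that length the median was 0.11, with 18.5% higher and 3.94% lower. Short genes in general were thus called higher more often than genes of any length (2.3%). Members with at least 300 and under 600 bases had a median of 0.16 (42 members), with 2 higher and 0 lower. All genes of that length had -0.05, with 4.61% higher and 5.79% lower. Members with 600 or more had -0.14 (24 members), with 0 higher and 1 lower. All genes of that length had -0.03, with 1.6% higher and 4% lower, so these counts were near that background. Against challenged once the 3 rechallenged medians were 0.26, -0.17 and -0.45, beside -0.01, -0.17 and -0.09 over all genes of the same lengths. Summed over all kept cells, the shortest members took 1.46%, 1.18% and 0.967% of UMIs in the rechallenged, challenged once and unchallenged libraries, the middle ones 1.49%, 1.55% and 1.23%, and the longest 0.336%, 0.437% and 0.35%. The shortest members were thus the ones whose share differed most between the rechallenged and unchallenged libraries.

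In HSPC-like cells rho was -0.61 and -0.55 for the rechallenged comparisons, in neutrophil progenitor-like cells -0.61 and -0.65, and in immature neutrophil-like cells -0.61 and -0.61. It was weakest in the unnamed cluster 7, at -0.30 and -0.21. Ndufv3, an accessory subunit of complex I with 1404 coding bases in its listed transcript, went against the pattern with a log2 ratio of 0.57 over all cells for rechallenged against unchallenged. Short coding sequence and complex overlap in this set, since the small subunits of complexes I, III, IV and V are mostly short and the core, complex II and catalytic subunits long, so the 2 groupings cannot be told apart here.

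**Figure D4:**
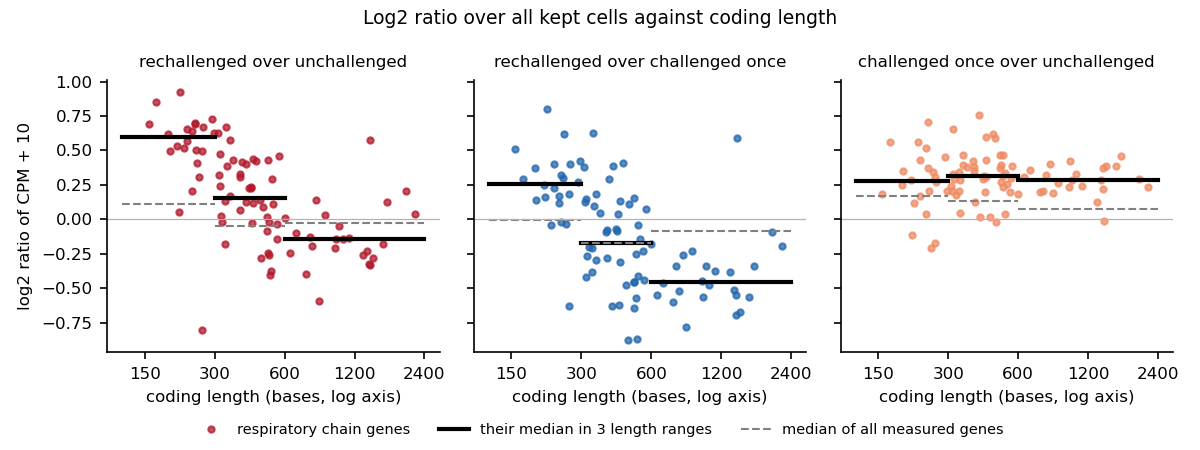
Log2 ratio over all kept cells against coding length in bases (log axis) for each comparison, with respiratory chain genes as coloured points, their median in 3 length ranges as black lines and the median of all measured genes as dashed lines. The coloured points slope downward in both rechallenged comparisons (rho -0.69 and -0.63) and not for challenged once against unchallenged (rho 0.01).

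The promoters of 4 members are shown to set the 2 directions side by side: Cox6a1 and Atp5k, always above 0 in the rechallenged library, Atp5g1, the lowest of all in HSPC-like cells against challenged once, and Sdhb, always below 0. The sequences are RefSeq promoters of the build GRCm38.p6, 250 bases before to 50 after the annotated start, read 5′ to 3′ on the gene's strand. Capitals mark matches on either strand to the NRF1 motif (GCGC and TGCGC with any 1 base between), CCGGAAG (the ETS motif bound by the GABP factors) or CACGTG (the E-box). The positions are chr5:115348909-115349208 on the minus strand for Cox6a1, chr5:108434350-108434649 on the minus strand for Atp5k, chr11:96075582-96075881 on the minus strand for Atp5g1 and chr4:140961021-140961320 on the plus strand for Sdhb.
Cox6a1: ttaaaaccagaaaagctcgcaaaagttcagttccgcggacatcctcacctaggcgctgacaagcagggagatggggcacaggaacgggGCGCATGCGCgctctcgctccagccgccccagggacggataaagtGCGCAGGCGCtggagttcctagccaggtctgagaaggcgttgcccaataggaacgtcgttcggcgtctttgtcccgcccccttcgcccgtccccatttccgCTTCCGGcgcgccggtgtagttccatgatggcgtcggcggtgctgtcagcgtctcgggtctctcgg
Atp5k: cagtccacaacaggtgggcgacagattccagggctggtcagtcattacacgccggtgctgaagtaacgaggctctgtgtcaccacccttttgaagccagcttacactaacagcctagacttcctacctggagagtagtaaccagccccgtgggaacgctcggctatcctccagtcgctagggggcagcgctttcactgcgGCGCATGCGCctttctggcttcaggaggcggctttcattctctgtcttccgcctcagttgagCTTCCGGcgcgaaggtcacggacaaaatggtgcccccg
Atp5g1: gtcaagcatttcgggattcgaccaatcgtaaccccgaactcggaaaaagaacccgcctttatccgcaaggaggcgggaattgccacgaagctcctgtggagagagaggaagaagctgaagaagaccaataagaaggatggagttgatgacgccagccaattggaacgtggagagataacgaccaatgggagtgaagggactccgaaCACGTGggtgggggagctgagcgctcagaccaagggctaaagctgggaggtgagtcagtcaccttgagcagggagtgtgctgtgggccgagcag
Sdhb: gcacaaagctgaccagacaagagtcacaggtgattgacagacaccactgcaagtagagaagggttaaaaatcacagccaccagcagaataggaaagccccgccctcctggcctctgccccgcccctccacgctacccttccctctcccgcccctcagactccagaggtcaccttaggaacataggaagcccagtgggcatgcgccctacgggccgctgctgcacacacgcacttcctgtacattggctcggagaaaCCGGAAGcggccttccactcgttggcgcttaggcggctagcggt

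Cox6a1 and Atp5k both carried an NRF1 and an ETS match, Sdhb an ETS match and Atp5g1 an E-box match. Promoters were on hand for 75 of the 94 members. Of these, 18 (24.0%) held the NRF1 motif, against 4.784% of 27025 promoters of all genes, and 17 (22.667%) the ETS motif, against 9.121%. The YY1 motif AAGATGGC, whose first letters can also end an ETS match, was in 9 (12%), against 2.879%, and the E-box in 5 (6.667%), against 7.241%. In HSPC-like cells the median log2 ratio for rechallenged against unchallenged was 0.26 over 17 measured members with the ETS motif and -0.08 over 54 without it. For the NRF1 motif the medians were 0.00 over 17 members with it and 0.07 over 54 without. The YY1 motif gave 0.21 over 9 with it and 0.03 over 62 without, and the E-box 0.08 over 5 and 0.03 over 66. Whether these splits follow coding length was not tested. A match is a description of letters in a window and shows no binding.

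Along the neutrophil lineage the respiratory chain genes were lower in immature neutrophil-like cells, marked by the secondary granule genes Camp, Ngp and Ltf, than in neutrophil progenitor-like cells of the same library. The number lower was 55 of 87 measured members in the rechallenged library, 62 of 86 in the challenged once library and 63 of 86 in the unchallenged library, and 0 were higher in each. Of all genes, 28.9%, 30.3% and 31.9% were lower in the same comparisons and 5.52%, 7.27% and 6.56% higher. The member medians were -0.69, -0.76 and -0.81, beside -0.33, -0.31 and -0.33 over all genes. Of 86 members measured in all libraries, 49 (57%) were lower in all 3, against 25.1% of all genes. With median-of-ratios scaling, whose centres lay at -0.65, -0.62 and -0.63, only 8, 17 and 16 members stayed lower, and 3, 2 and 2 were higher. With that scaling 10.7%, 13.2% and 14.8% of all genes were lower and 14.5%, 16.1% and 15% higher. The number of members lower in immature neutrophil-like cells thus depended on the scaling. In cluster 9 alone, by total UMIs, 33, 30 and 30 were lower, and in cluster 0 alone 71, 70 and 64. These single-cluster counts have no share of all genes beside them and show only that the number depended on the cluster.

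Single members differed widely in this step. Atp5g1 had the largest drop, with log2 ratios of -2.18, -2.04 and -2.26 in the rechallenged, challenged once and unchallenged libraries. Uqcr11 had -1.79, -1.64 and -1.78, Ndufaf4 -1.52, -1.97 and -1.90, and Cycs -1.62, -1.75 and -1.43. The accessory subunit Ndufb7 (-0.01, 0.10 and 0.05) and Ndufv3 (0.24, 0.29 and -0.13) stayed near 0. The first 4 were lower in all 3 libraries and the last 2 in none. Complex III was the group with the most uniform drop, with 7, 8 and 8 of its 8 members lower.

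In the step from immature neutrophil-like cells to the unnamed cluster 7, 55 of 81 members were lower in the rechallenged library, 33 of 82 in the challenged once library and 18 of 86 in the unchallenged library, where 28.7%, 25.2% and 15.1% of all genes were lower. With median-of-ratios scaling, where 15%, 14.3% and 8.93% of all genes were lower, the numbers were 19, 15 and 4. They depended on which clusters stood for the immature class, whose shares of cluster 9 are given above. Set against cluster 0 alone they were 32, 17 and 13, against cluster 6 alone 6, 3 and 1, and against cluster 9 alone 64, 62 and 53. Here too the single-cluster counts have no share of all genes beside them. Cycs had 46.7, 122 and 106 CPM in cluster 7, 152, 204 and 161 CPM in immature neutrophil-like cells and 486, 708 and 451 CPM in neutrophil progenitor-like cells of the 3 libraries. In each library its level was highest in the progenitors and lowest in cluster 7. Mature neutrophil-like cells, led by genes such as the cytokine Il1b and the chemokine Cxcl2, had member shares of 1.4% in the rechallenged library (452 cells) and 1.15% in the challenged once library (280 cells), and only 3 cells in the unchallenged library, too few to read.

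Several subunits exist as isoforms known from other tissues, and most of these were at or near 0. Cox7b2, Cox8b, Cox8c, Ndufa4l2 and the row Atp5o had at most 1 UMI in any library over all kept cells. The row Atp5o.1 carried the counts of that symbol, at 248, 209 and 138 CPM in HSPC-like cells of the rechallenged, challenged once and unchallenged libraries. It was higher in rechallenged than in unchallenged cells, and which of the identically named genes it stands for is not settled by the table. Cox4i2, a form known for its use in lung and at low oxygen, had 3.35, 7.91 and 4.98 CPM in HSPC-like cells, and Cox7a1, the heart and muscle form, had 1.8, 1.5 and 2.36 CPM, against 1133, 998 and 908 CPM for Cox4i1. Cox6b2 was led by erythroid-like cells, with 285, 405 and 399 CPM in cluster 13. Over all kept cells Cox6b2 was lower in the rechallenged library (55.2 CPM) than in the challenged once (90.8 CPM) and unchallenged (104 CPM) libraries. Erythroid-like cells numbered 259, 649 and 586 there, and the part of the class mix was not tested. Scaled by total UMIs, the Cox6b2 ratio for rechallenged against unchallenged was below 0 in every class read. Within the HSPC-like cluster 5 alone it had 86.0, 73.1 and 76.4 CPM, highest in the rechallenged library.

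Cox6a2, the heart and muscle form of the subunit that Cox6a1 encodes in most tissues, stood apart, because a cluster of progenitors was led by it although it took no part in the clustering. In cluster 12, whose other leading genes Flt3, Ly6d and Dntt mark early lymphoid progenitors, it had 329 CPM (312 to 346) in the rechallenged library, 256 CPM (242 to 270) in the challenged once library and 235 CPM (219 to 252) in the unchallenged library. A Cox6a2 UMI was found in 295 of 425, 263 of 376 and 164 of 287 of these cells (69.4%, 69.9% and 57.1%, median depth 11192 UMIs in the cluster). In the immature neutrophil-like cluster 0, with a median of 11409 UMIs, the share of cells was 0.472%, 0.173% and 0.737%. Dendritic cell-like cells had 151, 91.1 and 32.6 CPM, carried by 32 of 188, 12 of 119 and 3 of 66 cells. The small lymphoid cluster 21 had 85.0, 38.1 and 16.6 CPM from 7, 14 and 4 UMIs. Cluster 5, the HSPC-like cluster led by Hlf and Mecom, had 3.9, 4.75 and 1.89 CPM.

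The HSPC-like class as a whole mixed these clusters. Over HSPC-like cells Cox6a2 had 189, 97.2 and 106 CPM, and it was higher in the rechallenged library than in both others, where cluster 12 made up 425 of 816, 376 of 1096 and 287 of 759 HSPC-like cells. With Scrublet doublet calls kept in the clustering, the HSPC-like log2 ratios were -0.35 against unchallenged and -0.85 against challenged once cells, the opposite direction. Within cluster 5 alone the log2 ratio for rechallenged against challenged once was -0.086. Cox6a1 was present in the same cluster 12 cells at 541, 353 and 275 CPM.

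**Figure D5:**
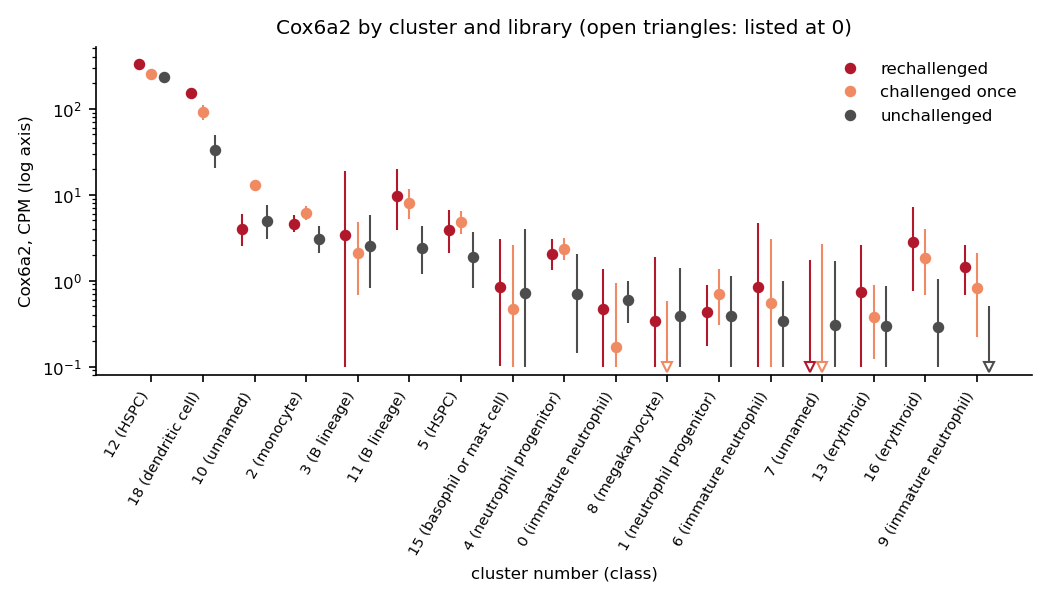
Cox6a2 level (CPM, log axis) in each library and each cluster with at least 50 cells per library, with exact 95% intervals for counting error and open triangles where it was listed at 0. Cluster 12 stands above all others with 329, 256 and 235 CPM in the rechallenged, challenged once and unchallenged libraries, followed by the dendritic cell-like cluster 18.

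Some members share sequence with other genes or pseudogenes at the 3′ end that the kit reads, so their counts are less certain. In the last 300 bases of the listed transcript, the share of 31-base words also found in other genes was 100% for Atp5g2, 99.3% for Cox7c, 76.7% for Atp5h, 72.2% for Atp5l, 66.3% for Ndufs3 and 57.8% for Atp5g1 and Ndufs5. For Cox7b, Cycs, Sdhb, Sdhd, Uqcrq, Cox6a2 and Ndufaf4 it was 0, and for Cox6a1 and Atp5k 19.6% and 25.9%. The values of the genes in the first group are uncertain for that reason.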

How the data were processed

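The 3 deposited tables held whole-number UMI counts per gene and cell barcode, made by the authors with Cell Ranger 3.0.0 on build mm10, per the submitters' processing notes; the annotation release is not given in the sources used here. Barcodes under 500 UMIs, under 300 detected genes or over 10% mitochondrial UMIs were dropped, and Scrublet calls (expected rate 6%) were left out. Members, mitochondrial, ribosomal protein, cell cycle, interferon, immediate early and sex-linked genes were left out of clustering (scanpy 1.11.5; 2000 variable genes, 30 components, 15 neighbours, Leiden resolution 1), which gave 22 clusters. Clusters were named from 15 marker lists, needing at least 3 markers at 2-fold. The lists for eosinophils and for stromal or endothelial cells named no cluster. UMIs were summed per library and class and scaled to 1000000 UMIs; 10 CPM was added before log2 ratios. Groups have 1 library each, so no test was run, and 1.5-fold calls are descriptions.

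The rule for members uses gene names alone, but the set, the lists and the comparisons were chosen with earlier results of these data known. Named members are the 5 with the highest and the 5 with the lowest ratio in each comparison over all cells, HSPC-like and neutrophil progenitor-like cells, the top member of each complex, isoform families and Sdha to Cycs; other genes are up to 3 of each list and all regulators. The genes on 1 side of 0 in every class, those of the stage comparison and the exception Ndufv3 were named after their values were seen. Values of 1 member are not reported here by name, and it is not drawn in the plot of genes across cell classes. Other software was numpy 2.4.6, scipy 1.17.1 and pandas 2.3.3. On simulated HSPC-like counts for challenged once over unchallenged (31053 genes), 175 of 200 genes changed 2-fold were called and 0 of 9035 unchanged ones. The simulation was run for that comparison alone. It does not cover the rechallenged comparisons or the spread between animals or library preparations, so it gives no rate of false calls for the real data.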

Additional observations from a re-analysis of the deposited data

Results flagged for a closer look

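Both results listed here set opposite directions in 2 cell classes side by side, and the differences were not tested because each group had 1 library. Cox6a2 had a log2 ratio of 0.90 for rechallenged against challenged once in HSPC-like cells and of -0.71 in the unnamed cluster 10, where its level was 3.96 and 12.9 CPM. Cox7a2l, which helps join complexes III and IV, had a ratio of 0.62 in the unnamed cluster 7 and of -1.0 in B lineage-like cells for the same comparison.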

How the results depend on the processing

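With 1 library in each group no replicate could be left out. No paired analysis was possible because each group had 1 library. Over the alternatives tried, 162 values over the whole list stayed close to those reported and 96 moved. Sets of 3 values are for the rechallenged, challenged once and unchallenged libraries. Alternatives on single clusters, neutrophil stages and the scaling of the every-class counts were chosen after seeing the data. Counts under the alternatives in this section have no share of all genes beside them unless one is given above. The members' share without the 50 most abundant genes was 5.33%, 4.58% and 4.20% over all cells, 4.10%, 3.86% and 3.31% in HSPC-like and 5.99%, 5.03% and 4.61% in neutrophil progenitor-like cells. Without mitochondrial and ribosomal genes in the total it was 5.68%, 5.09% and 3.63%, 5.43%, 4.83% and 4.04%, and 7.08%, 5.78% and 5.31%. With no filter on cells it was 3.30% and 3.19% over all cells of the challenged libraries, 2.39%, 2.65% and 2.17% in HSPC-like cells and 3.96% in rechallenged progenitors. At Leiden resolution 2 it was 2.72%, 2.80% and 2.29% in HSPC-like and 3.91%, 3.64% and 3.10% in progenitor-like cells. The median share per cell was 2.90%, 2.80% and 2.10% thinned to 1000 UMIs and 2.86%, 2.81% and 2.10% unthinned.

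Members past 1.5-fold over all cells for challenged once against unchallenged numbered 0 with median-of-ratios scaling, without the 50 most abundant genes and as a mean over classes, and 10 with 1 CPM added. For rechallenged against unchallenged the class mean gave 3. For rechallenged against challenged once the numbers were 9 without the 50 genes and 23 with 1 CPM. In HSPC-like cells challenged once against unchallenged gave 5 with no filter on cells, 6 with Scrublet calls kept, 6 with all variable genes and 5 in cluster 5 alone. Rechallenged against unchallenged gave 17 with median-of-ratios scaling and 14 without the 50 genes. Rechallenged against challenged once gave 8 and 11 under these 2 scalings, and 12 in cluster 12 alone.

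In progenitors challenged once against unchallenged gave 1 (median-of-ratios), 3 (without the 50 genes), 3 (thinned), 8 (all variable genes) and 1 (cluster 1 alone). Rechallenged against unchallenged gave 18 and 13 under the 2 scalings, 11 with 1 CPM, 11 thinned, 10 at resolution 2, 12 with all variable genes and 11 in each of clusters 1 and 4. Rechallenged against challenged once gave 16 thinned and 5 in cluster 4.

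The other energy lists over all cells had 1, 1 and 5 genes past 1.5-fold for challenged once against unchallenged (median-of-ratios, without the 50 genes, 1 CPM), and with 1 CPM 20 for rechallenged against unchallenged and 35 against challenged once. For rechallenged against challenged once 4 complex groups had a median above 0 with median-of-ratios scaling. Members on 1 side in every class for challenged once against unchallenged numbered 2 (median-of-ratios), 1 (without the 50 genes) and 2 (clusters of at least 100 cells), and 16 for rechallenged against unchallenged at resolution 2. Members lower in immature neutrophil-like than in progenitor-like cells numbered 8, 17 and 16 with median-of-ratios scaling and 26, 28 and 22 without the 50 genes, and from there to cluster 7 they numbered 19, 15 and 4 with median-of-ratios scaling. With cluster 9 alone as the immature class the numbers were 33, 30 and 30 for the first step, and 62 (challenged once) and 53 (unchallenged) for the second. The second step gave 32 (rechallenged) and 17 (challenged once) with cluster 0 alone, and 6, 3 and 1 with cluster 6 alone.

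Among the called values of single members, 4 changed sign and were those of Cox6a2. In HSPC-like cells with Scrublet calls kept its log2 ratio was -0.35 for rechallenged against unchallenged and -0.85 against challenged once. Rechallenged against challenged once also gave -0.53 with all variable genes in clustering and -0.086 in cluster 5 alone. The cause of these shifts was not tested. Genes under 100 UMIs over a pair were left out of the 1.5-fold calls, and the every-class counts used 30.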
